A study of Mus musculus with 2 samples.

Results

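Some stretches of open chromatin over 1 kb from protein-coding starts held many short segments called as footprints. In old mouse calf muscle 1074 such regions were found. DNase-seq cuts accessible DNA with the enzyme DNase I. A peak is a stretch that is cut often, and a footprint is a short run inside open DNA that is cut less than its surroundings, as happens where a bound protein shields the bases. Peaks of both samples were merged, and merged regions were kept that held a peak of both and whose centre lay over 1 kb from every protein-coding start site of the GENCODE annotation (mouse build mm10). Members were then chosen by their footprint counts, with 6 or more footprints required in each sample. Of 142555 merged regions 74212 held a peak of both samples, 53679 of these were distal, and 1074 (2.00%) met the count. They are called high-footprint regions here, and the remaining 52605 are called the other distal regions.

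The samples were 2 replicates of 1 group, the gastrocnemius (calf muscle) of adult male mice of the F1 hybrid strain B6CASTF1/J, aged 18-20 months. The labels name 1 donor for both but a separate biosample for each, which leaves unsettled if 1 animal or more was used. There was no treatment, control or second group, so no contrast between groups was made and no p-value is given. Whole tissue was used, so a region open in few cells and one open weakly in many cannot be told apart, and both parental alleles were read against the reference. All 18 listed genes of the shared sarcomere and excitation machinery had a peak within 1 kb of a start site in both replicates. Of all 21829 protein-coding genes 14340 had one in replicate 1 and 13876 in replicate 2. Of the listed liver genes 2 of 11 had one in replicate 1 and 1 of 11 in replicate 2, and of the germ cell genes 1 of 10 in each. Heart genes had 5 and 3 of 10, and neuron genes 8 and 6 of 10. Replicate 1 had 131398 peaks and 339656 footprints, and replicate 2 had 91567 and 234091. The read depth is unknown, so the larger lists of replicate 1 cannot be set against it.

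Enhancers and promoters work by gathering transcription factors on short DNA motifs, each a few bases long, within a stretch cleared of nucleosomes. In adult muscle the known players include the MyoD family on E-boxes, MEF2, SRF and TEAD proteins, beside factors that most cells use, such as the SP and KLF families on GC-rich boxes and CTCF, which organises chromatin loops. A footprint does not name its protein. DNase I also prefers some sequences over others, and its part in these footprint calls was not tested.

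The sequences below show what such a region looks like base by base. They are the most densely shared windows of 300 bases from the 5 regions with the highest footprint counts and from the leading regions near a sarcomere gene (Des) and near a myogenic regulator (Tead4). Each is named by the nearest protein-coding start, reads 5′ to 3′ on the plus strand of mm10, and has in capitals the bases that lay inside a footprint in both replicates.
Sin3a: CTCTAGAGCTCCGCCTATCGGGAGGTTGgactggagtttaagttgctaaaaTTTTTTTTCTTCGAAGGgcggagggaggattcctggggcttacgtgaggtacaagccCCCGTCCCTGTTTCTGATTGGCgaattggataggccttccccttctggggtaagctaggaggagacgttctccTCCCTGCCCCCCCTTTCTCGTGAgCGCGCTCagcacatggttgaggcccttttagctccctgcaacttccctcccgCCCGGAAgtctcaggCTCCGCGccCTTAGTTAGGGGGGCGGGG
Clec11a: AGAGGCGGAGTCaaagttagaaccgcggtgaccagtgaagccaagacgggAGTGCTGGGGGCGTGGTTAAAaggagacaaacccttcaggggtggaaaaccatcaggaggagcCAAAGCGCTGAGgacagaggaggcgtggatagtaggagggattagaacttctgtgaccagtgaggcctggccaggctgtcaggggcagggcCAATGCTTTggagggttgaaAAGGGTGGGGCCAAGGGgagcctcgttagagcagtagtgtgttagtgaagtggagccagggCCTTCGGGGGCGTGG
Irf2bp2: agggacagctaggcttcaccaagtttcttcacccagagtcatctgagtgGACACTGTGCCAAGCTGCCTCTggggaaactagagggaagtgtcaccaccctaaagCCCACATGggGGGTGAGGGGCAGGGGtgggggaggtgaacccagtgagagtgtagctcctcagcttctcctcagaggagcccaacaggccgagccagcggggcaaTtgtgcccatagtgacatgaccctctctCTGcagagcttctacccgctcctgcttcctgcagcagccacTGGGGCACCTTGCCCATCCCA
Zbtb20: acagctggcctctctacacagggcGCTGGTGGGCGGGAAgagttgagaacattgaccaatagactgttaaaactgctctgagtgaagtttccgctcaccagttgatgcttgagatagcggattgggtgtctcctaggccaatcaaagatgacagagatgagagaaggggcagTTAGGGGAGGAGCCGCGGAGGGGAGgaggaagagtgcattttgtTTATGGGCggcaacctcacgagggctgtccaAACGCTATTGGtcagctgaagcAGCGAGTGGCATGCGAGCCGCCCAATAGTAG
Irs1: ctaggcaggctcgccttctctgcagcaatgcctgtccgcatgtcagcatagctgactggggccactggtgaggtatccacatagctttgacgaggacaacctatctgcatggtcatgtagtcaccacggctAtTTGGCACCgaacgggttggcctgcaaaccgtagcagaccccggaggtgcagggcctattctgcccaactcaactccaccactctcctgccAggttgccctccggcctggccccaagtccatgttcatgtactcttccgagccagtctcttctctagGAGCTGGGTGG
Des: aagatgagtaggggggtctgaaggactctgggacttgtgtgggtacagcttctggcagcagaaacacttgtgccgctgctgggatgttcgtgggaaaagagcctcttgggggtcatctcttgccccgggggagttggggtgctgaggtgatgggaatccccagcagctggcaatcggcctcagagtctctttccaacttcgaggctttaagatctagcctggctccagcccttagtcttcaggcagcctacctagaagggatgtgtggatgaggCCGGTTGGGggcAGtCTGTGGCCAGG
Tead4: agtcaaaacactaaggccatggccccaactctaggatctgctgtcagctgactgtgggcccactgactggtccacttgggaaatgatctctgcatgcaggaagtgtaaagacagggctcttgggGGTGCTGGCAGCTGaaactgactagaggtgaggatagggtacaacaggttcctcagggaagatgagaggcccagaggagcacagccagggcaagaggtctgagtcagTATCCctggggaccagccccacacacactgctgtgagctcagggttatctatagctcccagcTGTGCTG

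The windows were chr9:57073551-57073850 (Sin3a), chr7:44305307-44305606 (Clec11a), chr8:126566130-126566429 (Irf2bp2), chr16:42875514-42875813 (Zbtb20), chr1:82287429-82287728 (Irs1), chr1:75344942-75345241 (Des) and chr6:128265132-128265431 (Tead4). Bases shared by both replicates' footprints numbered 130 of 300 in the Sin3a window, 90 in Zbtb20, 86 in Clec11a and 71 in Irf2bp2. The windows at Tead4, Des and Irs1 had 26, 22 and 21. Of the 3 matches to the GC box (GGGCGG on either strand), the site of SP and KLF factors, in the Sin3a window, 1 stood wholly in capitals, as did 1 of 2 CCAAT boxes, the site of NF-Y. In the Zbtb20 window 2 of 3 GC boxes stood wholly in capitals. Of its 2 myogenic E-boxes (CAGCTG), the form bound by MyoD family proteins, neither did. The Tead4 window held 3 myogenic E-boxes, of which 1 was wholly in capitals, and the single one of the Des window was not.

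Replicates 1 and 2 had a median of 7 and 7 footprints in a high-footprint region (highest 23 and 21), against 3 and 2 in the other distal regions, values that the choice itself sets. There were 195 regions with exactly 6 in both, with a median width of 300 bp and median signals of 2.37 and 2.05, and 632 regions with 5 in both, with a median width of 240 bp and signals of 1.95 and 1.75. Another 642 regions had 6 or more in replicate 1 and 5 in replicate 2, and 430 the reverse. Taken alone, the minimum was met by 7.33% of shared distal regions in replicate 1 and by 4.10% in replicate 2. Among the high-footprint regions, 710 (66.1%) had counts that differed by at most 1 and 77 by over 3. Only 56 regions reached 10 in both replicates and 19 reached 12.

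**Figure D1:**
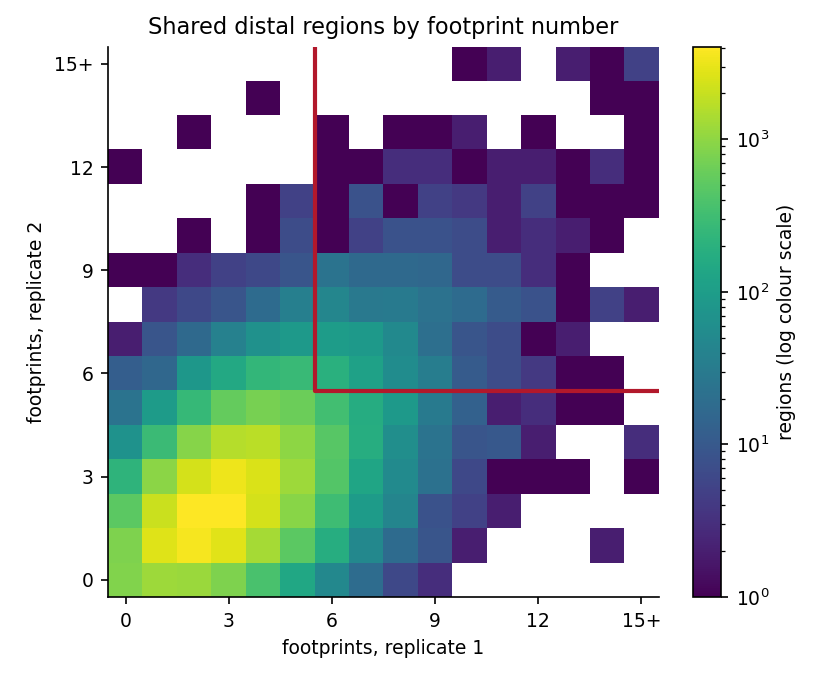
Number of distal regions with a peak in both replicates (colour, log scale) by their footprints in replicate 1 (x axis) and replicate 2 (y axis), with counts of 15 or more pooled. The red corner encloses the 1074 regions with 6 or more in both; most of the 53679 regions sit near 3 and 2.

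Ranked by the smaller of its 2 counts, the leading region lay in an intron of Sin3a, which encodes the scaffold of a histone deacetylase corepressor (chr9:57072981-57073860, 1381 bp from the nearest coding start). It had 20 footprints in replicate 1 and 18 in replicate 2 on 880 bp, with peak signals of 9.33 and 6.70 in the authors' unit. Next came an intronic region that also touches an exon of Clec11a, the gene of a secreted growth factor (chr7:44304861-44305620), with 18 and 17 footprints and signals of 5.63 and 5.88. A region 27525 bp from Irf2bp2, a transcriptional corepressor gene, had 16 and 16 footprints (chr8:126565901-126567020) and signals of 2.25 and 1.96. It overlaps the start of the long noncoding RNA gene Gm26759. The region at Zbtb20, the gene of a zinc finger repressor, had 22 and 15 footprints (chr16:42874981-42875900) and signals of 9.28 and 11.0, and lies within 1 kb of the starts of a noncoding Zbtb20 transcript and of the long noncoding RNA 4932412D23Rik. These 4 regions thus all sat within a gene or at an annotated noncoding start, although none was within 1 kb of a protein-coding start.

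The widest of the 12 was of another kind. It covered 2370 bp of Irs1, which encodes the docking protein of the insulin receptor, over an exon and part of its untranslated region (chr1:82286207-82288576). It had 15 and 18 footprints, yet its signals of 0.761 and 0.866 stood at the 39.6th and 55.7th percentile of shared distal regions. Of the bases in a footprint of either replicate there, 8.81% were in footprints of both. A region of 1698 bp in an intron of Casz1, a zinc finger transcription factor gene (chr4:148805070-148806767), was similar, with 14 and 15 footprints, signals of 1.10 and 1.04, and 10.8% of footprint bases in both. The opposite was seen in an intron of Mid1 near the end of the X chromosome (nearest coding start Gm21887, chrX:169997921-169998420). There 16 and 14 footprints stood on 500 bp, the signals were 6.32 and 11.8, and 84.1% of footprint bases were in both replicates. The GC content of that region was 74.0%, and a part of reads from similar sequence elsewhere in the genome was not tested.

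Klf9, a glucocorticoid-responsive Krüppel-like factor gene, had a region 5415 bp from its start with 14 and 14 footprints (chr19:23135381-23136240) and signals of 4.37 and 4.62. Irf2bpl, a relative of Irf2bp2, had one with 13 and 21 footprints (chr12:86888061-86888980) and signals of 3.01 and 3.23. A region assigned to Frmd8 spans the start of Neat1, the RNA scaffold of nuclear paraspeckles (chr19:5845361-5846040), with 17 and 13 footprints and signals of 7.40 and 6.93. The region at Sgk1, a serum- and glucocorticoid-inducible kinase gene, was 140073 bp from the start (chr10:21741521-21742700), with 13 and 16 footprints and signals of 2.32 and 1.19. Peg3, an imprinted gene expressed from the paternal copy, had an intronic region with 15 and 12 footprints (chr7:6728261-6728960) and signals of 3.78 and 4.23. Across the 12 regions the share of footprint bases in both replicates ran from 8.81% to 84.1%.

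**Figure D2:**
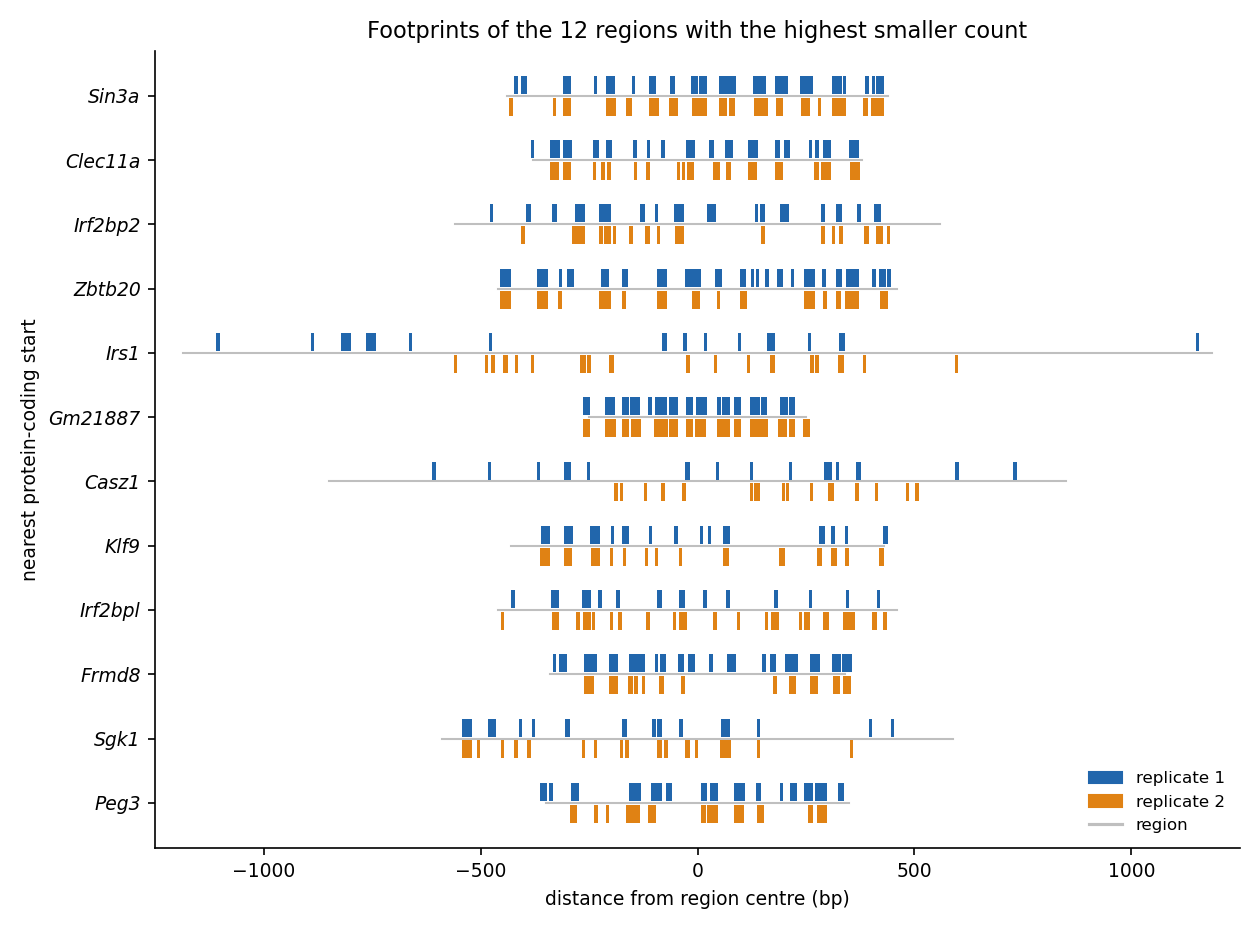
Footprints of replicate 1 (blue, above the line) and replicate 2 (orange, below) in the 12 regions with the highest smaller count, by distance from the region's centre in bp; the grey line is the region. In the Sin3a and Gm21887 rows the replicates' footprints largely stand over each other, while in the Irs1 and Casz1 rows most stand apart.

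High-footprint regions were wide. Their median width was 420 bp (180 to 2370), against 220 bp in the other distal regions, and 621 of them (57.8%) reached 400 bp against 6.27% of the others. The share of distal regions with 6 or more footprints in both was 3 of 12092 (0.0248%) below 200 bp, 450 of 37669 (1.19%) from 200 to under 400 bp and 377 of 3074 (12.3%) from 400 to under 600 bp. It was 159 of 625 (25.4%) from 600 to under 800 bp, 52 of 137 (38.0%) from 800 to under 1000 bp and 33 of 82 (40.2%, exact 95% interval 29.6% to 51.7%) from 1000 bp. The density of footprints ran the other way, which the minimum of 6 partly sets, since a narrow region meets it only at a high density. The median density was 2.31 and 2.22 per 100 bp in the members from 200 to under 400 bp. In those of 1000 bp or more it was 0.900 and 0.741. The other distal regions of these classes had 1.25 and 0.990, and 0.288 and 0.262. A count of 6 therefore takes in narrow regions with tightly packed footprints and wide ones with scattered footprints. When the same number of regions was taken by footprints per 100 bp, 193 of the 1074 were the same regions, and 0.559% of that set reached 400 bp.

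**Figure D3:**
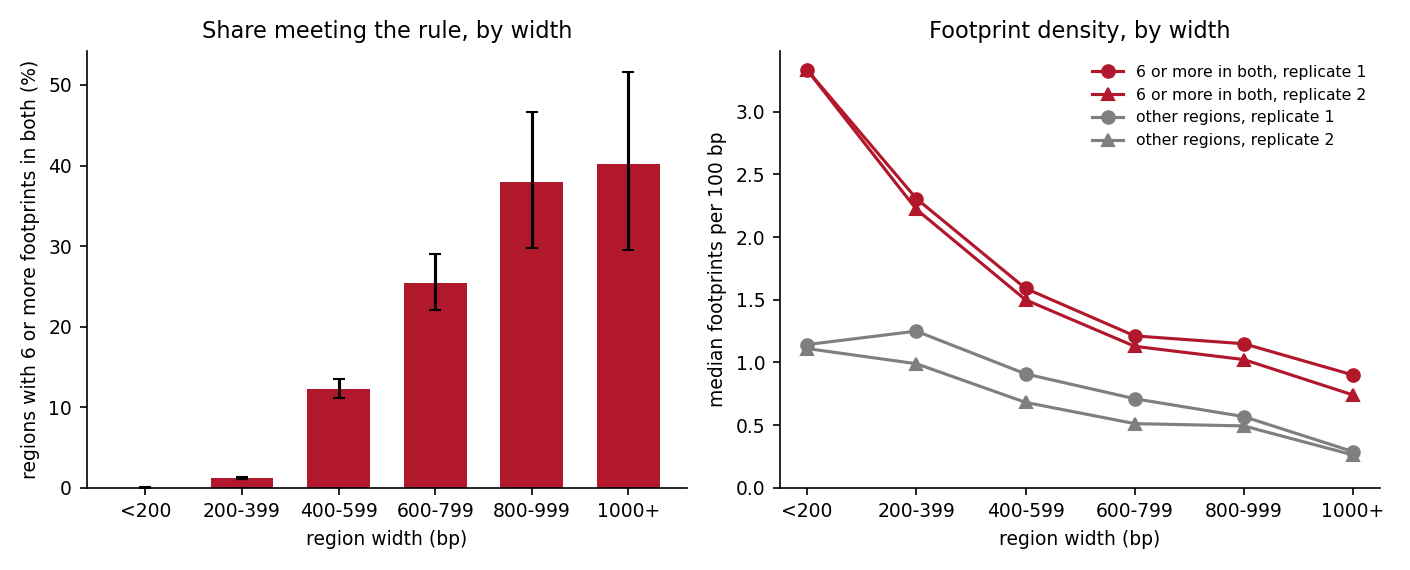
Left, share of shared distal regions with 6 or more footprints in both replicates by region width in bp (bars; error bars are exact 95% binomial intervals). Right, median footprints per 100 bp by width in these regions (red) and in the others (grey), for replicates 1 (circles) and 2 (triangles); the narrowest class holds 3 members, and the share climbs to 40.2% while the density falls.

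Their peak signals were also higher than those of the other distal regions, though the widest members had low ones. The strongest peak in a high-footprint region had a median signal of 2.08 in replicate 1 and 1.90 in replicate 2. In the other distal regions it was 0.904 and 0.777. Members from 200 to under 400 bp had 2.89 and 2.68, and those of 1000 bp or more 0.929 and 0.934. The other distal regions of these widths had 0.980 and 0.833, and 0.589 and 0.660. In both replicates at once, 408 (38.0%) were among the top 10% of shared distal regions by signal, and 57 (5.31%) were below the median. Within the class from 200 to under 400 bp, ordered by signal and cut into 10 equal bins, the share with 6 or more footprints in both was 0 of 3767 in each of the 2 lowest bins (exact 95% upper bound 0.0979%) and 279 of 3767 (7.41%) in the highest. Footprint number, width and signal come from the same libraries, so these values describe the members and support nothing about them. Stretches listed with a false discovery rate under 0.05 that overlapped a high-footprint region summed to 839.5 and 715 bp at the median. In the other distal regions they summed to 315 and 250 bp. From 200 to under 400 bp the medians were 790.5 and 645 bp in members against 334 and 261 bp in the others.

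The 5 regions with the highest signal among the members lay near Gm15319, Nr1d1, Mxi1, Zfp395 and Trappc9. That near Gm15319, within 1 kb of the start of the pseudogene 2610005L07Rik (chr8:20424721-20424940), had signals of 14.9 and 20.8 and 6 and 6 footprints, and whether reads of near-identical copies add to it was not tested. The region in an intron of Nr1d1, the gene of the clock repressor REV-ERB alpha (chr11:98773781-98774200), had signals of 12.7 and 15.2 and 7 and 7 footprints. Mxi1, the gene of a MYC antagonist, had an intronic region with signals of 11.3 and 13.9 (chr19:53314221-53314460). By density the leading regions were near Acod1, the gene of the enzyme that makes itaconate (8 and 7 footprints on 200 bp, signals 1.46 and 1.75), Pecr, Wee1, Mrps23 and Ankrd9. The region near Mrps23 had 13 and 10 footprints on 320 bp with signals of 1.95 and 2.06. All 5 regions leading by signal were CpG-rich as defined below, and 2 of the 5 leading by density were.

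Footprints of the same region often did not recur at the same bases. Of 8288 footprints of replicate 1 in high-footprint regions, 62.1% overlapped a footprint of replicate 2 by at least 1 bp, and of 7929 of replicate 2, 67.0% overlapped one of replicate 1. The other replicate's footprints covered 18.9% and 20.9% of the bases of these regions. In the other distal regions 49.1% and 63.1% overlapped, with 12.4% and 16.1% of bases covered. The members' values were higher in both directions. Members were chosen by their counts in both replicates, so this difference is partly set by the choice. A footprint cannot overlap one of the other replicate where that replicate has none, and such regions stand only among the others. How much of the difference this makes up was not tested. The values of replicates 1 and 2 are the directions of 1 comparison of 2 samples and give no spread between replicates. An identical start and end was found for 3.23% and 3.38% of footprints.

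The recurrence moved with width and signal inside the group. In members from 200 to under 400 bp, 75.3% and 79.1% of footprints overlapped one of the other replicate, with 29.5% and 31.8% of bases covered. In the other distal regions of that width 49.6% and 64.0% of footprints overlapped one, a comparison that the choice of members also partly sets. In members of 1000 bp or more the values were 34.3% and 40.4%, with 7.76% and 9.70% of bases covered. By signal, members with a mean signal percentile under 50 had 37.9% and 43.0% and those from the 90th percentile up 74.5% and 78.7%. Other distal regions of the same signal classes had 35.4% and 50%, and 73.0% and 81.5%. In these signal classes the values of replicate 2 were lower in members in all 4, and those of replicate 1 were higher in 2 and lower in 2. Members of the lowest class were wider than the others in it (median 660 against 220 bp), so width and signal were not matched at once.

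**Figure D4:**
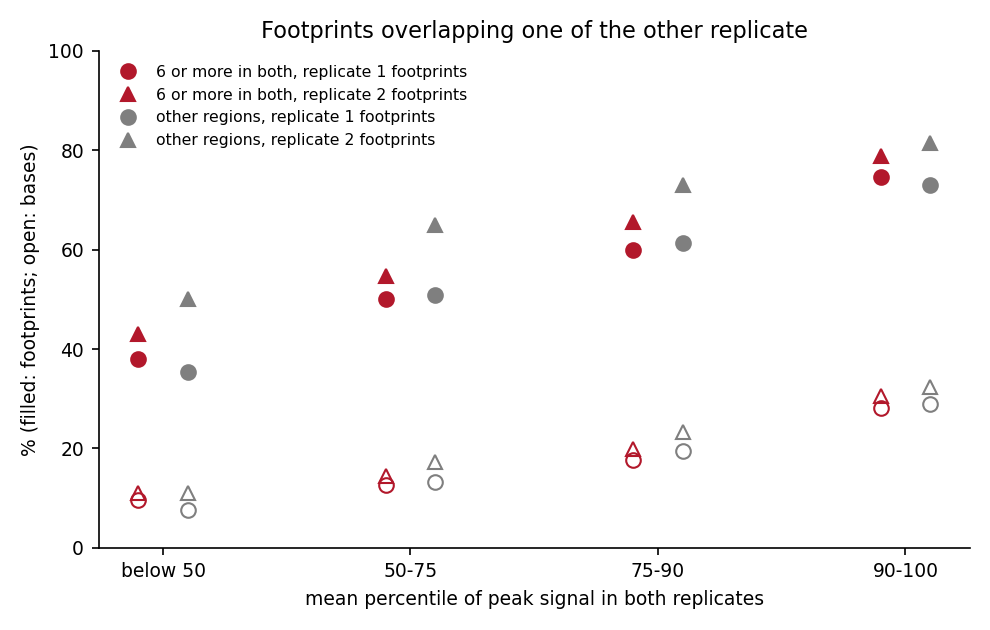
Percentage of footprints that overlap a footprint of the other replicate (filled) and percentage of bases that the other replicate's footprints cover (open), by class of mean peak-signal percentile. Red marks the regions with 6 or more footprints in both, grey the other distal regions; both rise from the lowest to the highest class, for replicate 1 footprints from 37.9% to 74.5% in red.

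Taken over all region widths, single footprints were no longer in these regions than elsewhere. Their median width was 10 bp in both replicates and in both kinds of region, and footprints of 20 bp or more made up 17.4% and 14.5% in high-footprint regions against 20.2% and 17.8% in the others. Neighbouring footprints were a median of 46.5 and 45.5 bp apart from centre to centre, with the middle 50% from 24 to 65 bp in replicate 1 and from 22.5 to 66 bp in replicate 2. In the other distal regions the medians were 49 and 48.5 bp. In the class from 200 to under 400 bp the median footprint width was 12 and 11 bp in members and 10 bp in the others.

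High-footprint regions lay more often between genes and less often in introns than the rest. The centre was intergenic in 497 (46.3%, exact 95% interval 43.3% to 49.3%) against 39.8% of the other distal regions, and in an intron of a protein-coding gene in 360 (33.5%, 30.7% to 36.4%) against 46.1%. An exon of a protein-coding gene held 94 centres (8.75% against 6.33%), and another kind of gene held 123 (11.5% against 7.78%). Intervals cover counting error only, and neighbouring regions are not independent. The median distance to a coding start was 18306 bp, against 24747 bp. By chromosome the share of members ran from 1.61% on chromosome 18 (28 of 1742) to 2.57% on chromosome 4 (92 of 3580), with 0 of 35 on Y.

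Starts of noncoding transcripts were common among them, which the rule did not set aside. The centre lay within 1 kb of the start of a long noncoding RNA gene in 129 (12%, interval 10.1% to 14.1%) against 3.90% of the other distal regions. In the class from 200 to under 400 bp the shares were 13.8% and 3.95%. A small RNA gene was that close in 30 (2.79% against 0.701%), a noncoding transcript of a protein-coding gene in 63 (5.87% against 3.66%) and a pseudogene in 12 (1.12% against 0.722%). Any of these applied to 215 (20.0% against 8.64%).

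Named examples, chosen after their values were seen and each within 1 kb of the start, include well-known nuclear and host-gene RNAs. Malat1, an RNA of nuclear speckles, had a region of 240 bp (chr19:5803541-5803780) with 6 and 6 footprints and signals of 9.0 and 10.9. Snhg8, which hosts the small nucleolar RNA Snora24 (chr3:123508361-123508600), had 6 and 6 footprints and signals of 9.33 and 10.0. Snhg5, another host of small nucleolar RNAs (chr9:88522861-88523280), had 9 and 9 with signals of 7.40 and 7.09. Mir22hg, the host of miR-22 (chr11:75462241-75462760), had 7 and 11 with signals of 5.85 and 5.25. Ftx, a noncoding gene of the X inactivation centre (chrX:103622361-103622660), had 8 and 6 with signals of 4.40 and 4.12. The microRNA genes Mir212 (13 and 11 footprints, signals 1.45 and 1.67) and Mir193a (13 and 6, signals 3.31 and 3.43) also had a member within 1 kb.

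In sequence the high-footprint regions were richer in G and C. Their median GC content was 56.5% against 52.0%, and the ratio of observed to expected CpG dinucleotides was 0.339 against 0.241. CpG-rich regions, with over 50% GC and a ratio above 0.6, made up 267 (24.9%, interval 22.3% to 27.6%) against 5.15% of the other distal regions. From 200 to under 400 bp the shares were 30.4% and 5.14%. Among regions of any width from the 90th signal percentile up they were 38.0% and 15.2%, a smaller contrast. Of the 215 members near a noncoding start 48.8% were CpG-rich, and of the 859 others 18.9%, against 15.9% and 4.14% in the other distal regions. The CpG-rich members were narrower than the other members (median 380 against 440 bp), lay nearer to coding starts (8106 against 22547 bp) and had higher signals (3.01 and 3.15 against 1.92 and 1.71). Footprint counts had a median of 7 in both replicates in either kind.

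Motif matches were counted on both strands, and the class from 200 to under 400 bp was used to compare regions of similar length. The GC box was present in 175 of the 450 members of that class (38.9%, interval 34.4% to 43.6%) and in 11.6% of the other distal regions. Since members were longer within the class too (median 300 against 220 bp), the density is given as well, 25.7 matches per 10 kb against 6.17. Among regions of the class that were not CpG-rich the GC box was in 24.0% against 9.58%. Among regions of any width from the 90th signal percentile up it had 32.0 against 13.5 matches per 10 kb, a smaller contrast. In the class from 200 to under 400 bp the CACCC box (CCACCC), a KLF site, was in 38.4% against 24.0%, or 18.7 against 12.2 matches per 10 kb. CACGTG, the E-box of clock and USF proteins, was in 9.33% against 5.01% (3.32 against 2.15 per 10 kb), but without CpG-rich regions in 6.39% (interval 3.95% to 9.70%) against 4.71%, at 2.11 and 2.01 per 10 kb. The CRE (TGACGTCA), bound by CREB and ATF proteins, was in 3.11% against 0.661% (1.11 against 0.271 per 10 kb).

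Sites of muscle factors were counted in the same way. The myogenic E-box was in 31.8% against 28.2% of the class, with 14.6 and 14.0 matches per 10 kb. Without CpG-rich regions it was in 39.3% (interval 33.9% to 44.9%) against 28.7%, or 17.7 against 14.3 per 10 kb. MEF2 sites were in 1.11% against 1.41%, and the MEF3 site (TCAGGTT) was in 3.33% against 4.10%. The TEAD site MCAT (GGAATG) was in 18.2% against 16.3%, with 6.79 against 7.34 matches per 10 kb. The CArG box, the site of SRF, was in 2.67% (interval 1.39% to 4.61%) against 1.26%. The CTCF core motif was rarer, in 4.0% against 6.91%, and GATA sites (AGATAA) were in 4.22% against 6.93%. In regions from the 90th signal percentile up the CTCF core was in 4.15% of members and 15.3% of the other distal regions. CAGCTG and CACGTG are both forms of the general E-box CANNTG, which was in 76.4% and 79.6% of the class.

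Inside the high-footprint regions the motifs differed in how often they lay in footprints. Footprints widened by 5 bp on each side covered 35.0% of bases in replicate 1 and 32.3% in replicate 2. Of GC boxes 69.3% and 66.2% had their middle base there, which is 36.9 and 38.3 matches per 10 kb inside and 8.81 and 9.32 outside. The ratio of inside to outside was 4.15 ± 0.0580 (SD, n = 2). Its 2 values share the same regions and motif matches, so this SD does not measure spread between animals. In the other distal regions the ratio was 2.61 and 3.05. GC content was 60.7% and 61.5% inside and 55.2% and 55.0% outside, and its part in the ratio was not tested. All 39 matches of the CTCF core in replicate 1 and 36 of 39 in replicate 2 lay inside footprints, and in the other distal regions 96.9% and 93.1% did. In members 28 and 26 of the 30 CRE matches and all 13 NRF1 matches in each replicate lay inside too. In the other distal regions 73.7% and 59.9% of CRE matches and 92% and 80% of NRF1 matches did.

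The NFI site TTGGCA, 1 arm of the full palindrome, was inside in 70.0% and 60.1% of cases, or 19.8 and 18.5 per 10 kb inside against 4.59 and 5.85 outside. Myogenic E-boxes stood in footprints little more often than the bases around them, with 38.9% and 35.8% inside, or 15.2 and 15.1 per 10 kb inside against 12.8 and 12.9 outside. MEF2 sites were inside in 21 and 12 of 30 cases. CACGTG was inside in 55.4% and 48.5%. Forkhead sites (TGTTTAC) were inside in 11.4% in both replicates and GATA sites in 23.0% and 16.8%, below the share of bases. In the other distal regions widened footprints covered 26.6% and 20.9% of bases. NFI sites were inside there in 55.6% and 40.1%, forkhead sites in 14.8% and 9.27% and GATA sites in 18.2% and 13.0%. The myogenic E-box ratio of inside to outside was 1.32 and 1.42 there, against 1.18 and 1.17 in members. A match is a description of the letters and no evidence of a bound factor.

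**Figure D5:**
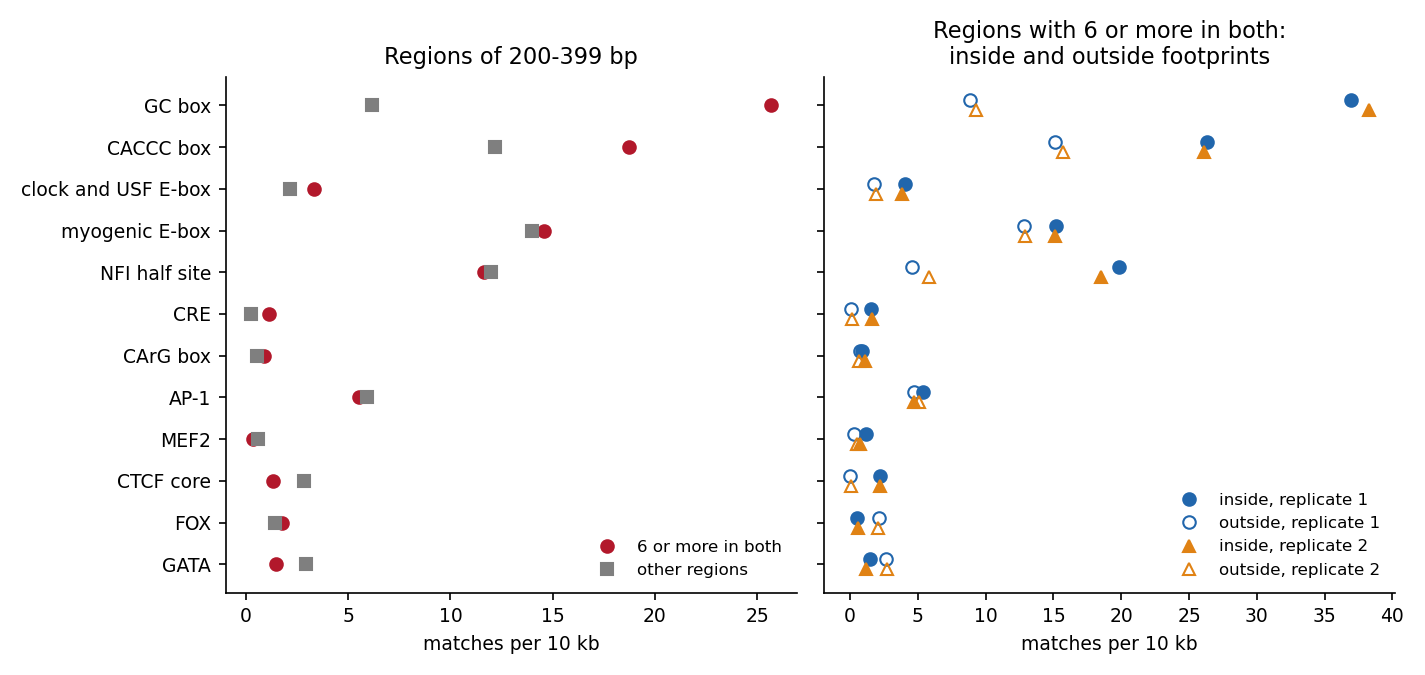
Left, motif matches per 10 kb in distal regions from 200 to under 400 bp with 6 or more footprints in both replicates (red circles) and in the others (grey squares). Right, matches per 10 kb inside (filled) and outside (open) footprints widened by 5 bp within the high-footprint regions, for replicates 1 (blue circles) and 2 (orange triangles); the GC box has the largest absolute difference of the motifs drawn in both panels, at 25.7 against 6.17 on the left.

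The regions were spread over many genes. They had 918 different nearest protein-coding genes, of which 796 were nearest to 1 member and 6 to 4 members. Those 6 were Ddit4, an inhibitor of mTORC1 induced by stress, Rab11fip4, Hes1, a target gene of Notch signalling, Gadd45g, Irf2bp2 and Zfp36l1, an RNA-decay factor gene. Ddit4 had 4 members among 15 shared distal regions assigned to it (26.7%), from 5910 to 30373 bp away, with 6 to 8 footprints in replicate 1 and 6 to 11 in replicate 2. Hes1 had 4 among 31 (12.9%), from 1119 to 119079 bp away, with 7 to 11 and 8 to 11. Rab11fip4 had 4 among 28, Gadd45g 4 among 34, Irf2bp2 4 among 40 and Zfp36l1 4 among 61. The next, with 3 members each and ordered by the fewest shared distal regions, were Arrdc2 (3 of 7), Btd (3 of 7), Lsp1 (3 of 9) and Arid1a, a subunit gene of the BAF remodelling complex (3 of 10). Another member lay within 10 kb of 122 members (11.4%).

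Of 1652 shared distal regions whose nearest start belonged to one of the 268 listed genes, 44 (2.66%, interval 1.94% to 3.56%) were members, beside 2.00% of all. Immediate early genes, which respond within minutes to stimuli, had 11 of 136 (8.09%, interval 4.11% to 14.0%), and 2 of the 32 in their gene bodies were members. The region 18549 bp from Fos had 9 and 8 footprints and signals of 9.07 and 9.03 (chr12:85455121-85455560), and the one 1619 bp from it had 9 and 8 with signals of 3.27 and 3.25 (chr12:85472021-85472520). Nr4a1, an orphan nuclear receptor gene, had a region with 8 and 8 footprints and signals of 6.59 and 7.61 (chr15:101246221-101246720) and another with 9 and 6. Jun had 3 members, at 30513, 101889 and 109259 bp, and Junb had 2, at 1233 and 2057 bp, each with 1 CArG box. Maff had 1. None of the 11 held a CRE, and 1 held an AP-1 site (TGANTCA).

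The circadian clock list had 7 of 143 (4.90%, interval 1.99% to 9.83%), an interval that includes the 2.00% of all shared distal regions, and 3 of the 99 in the gene bodies were members. Besides the intronic region given above, which held 3 CACGTG matches, Nr1d1 had members 8178 bp away with 7 and 7 footprints and signals of 7.62 and 8.65 (chr11:98783381-98783640) and 9672 bp away, in the neighbouring gene Thra, with 7 and 7 and signals of 1.19 and 1.44. Bhlhe40, a clock-linked repressor gene, had 1 with 9 and 7 footprints and signals of 4.23 and 3.67. Tef and Dbp, which encode clock output factors of the PAR family, had 1 each, with 8 and 9 and with 7 and 7 footprints. Rora, an activator that competes with REV-ERB proteins, had 1 of 1127 bp with 12 and 6 footprints and signals of 0.944 and 1.04. CACGTG occurred in 3 of the 7.

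Lists of muscle genes had from 0 to 4 members each. The shared sarcomere and excitation list had 4 of 118 (3.39%, interval 0.931% to 8.45%). The one nearest to Des (intermediate filament, chr1:75344701-75345320) was intergenic, 15318 bp away, with 10 and 7 footprints and signals of 2.13 and 1.82. The others were in Trdn (8 and 6), in Ldb3 (6 and 7) and nearest to Acta1 (skeletal actin, 7 and 6) but inside Gm20388. The fast fibre list had 2 of 73 (2.74%). They included a region of 220 bp in Casq1, the calcium store protein gene, with 7 and 7 footprints and signals of 6.93 and 8.50 (chr1:172217201-172217420). Myogenic regulators had 2 of 135 (1.48%), at Tead4 (chr6:128264961-128265600; 10 and 7; signals 2.20 and 1.44) and Mef2c (6 and 11). Within the bodies of the myogenic regulator genes 4 of 82 (4.88%) were members. The slow fibre list had 1 of 39, nearest to Myl3 but inside Pth1r. The neuromuscular junction list had 0 of 64, an exact upper bound of 5.6%.

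For the metabolic and signalling lists the exact intervals all included 2.00%. Mitochondrial and oxidative genes had 4 of 102 (3.92%), of which 2 were nearest to the lipid-sensing receptor gene Ppara. Another was nearest to Ucp3 but inside C2cd3 (8 and 7 footprints, signals 3.52 and 2.65). Glycolysis and glycogen had 3 of 54 (5.56%, interval 1.16% to 15.4%), of which 2 lay on exons of Gapdh with 10 and 6 footprints each and 1 was in Gbe1. Insulin and growth signalling had 2 of 145 (1.38%), both at Irs1. Atrophy and denervation had 2 of 158 (1.27%), nearest to Foxo1 and to Gadd45a, the latter 55170 bp away inside Gng12. Of the lists for other cells, fibro-adipogenic and fibroblast genes had 3 of 138, nearest to Col1a1, Col1a2 (85623 bp away) and Tcf7l2. Endothelial genes had 1 of 74 (Sox17, 74527 bp away) and mural genes 1 of 32, which is the Des region again. Neuron genes had 2 of 41, nearest to Snap25 and Slc17a7. Satellite cell (49 regions), macrophage and immune (34), Schwann cell (30), adipocyte (31), liver (15), heart (17) and germ cell (39) lists had none. The nearest start does not show which gene a region acts on.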

How the data were processed

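DNase-seq was deposited for 2 samples of gastrocnemius, with a pair of peak lists, 1 footprint list and 1 list of cut-rate stretches each, on mm10. Per the labels' file descriptions, peaks and footprints were derived from each sample's own filtered alignments, without pooling. Aligner, callers and versions are not given in the sources used here. The deposited peak signal is in the authors' own unit, whose scale is not stated. Signals are printed in that unit, and classes and ranks of signal used percentiles within a replicate. The deposited cut-rate lists give a false discovery rate (a p-value type) and hold only stretches under 0.05. The deposited footprint lists hold the constant 0.01 as their p-value, so only their positions were used. Depth is unknown, and shares carry exact (Clopper-Pearson) 95% intervals that cover counting error only.

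Overlapping or touching peaks of the longer list of each replicate were merged. A footprint was counted in a region that it overlapped by 1 bp or more. Start sites, exons and genes came from GENCODE M21, and sequence from the RefSeq copy of mm10. CpG-rich (over 50% GC, ratio above 0.6) was defined after the data were seen. Motifs (24) were searched on both strands and assigned by their middle base to footprints widened by 5 bp.

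Members and the 22 gene lists were chosen with earlier results of these data known. With 1 group there was no test. Named were the 12 regions with the highest smaller footprint count, the leading region of each gene list, the 5 with the highest signal, the 5 densest and the 10 genes with most members, ties going to genes with fewer shared distal regions. Regions on chromosome 18 were counted and not named. The leading region of the fast fibre list is not reported here. Python 3.11.15, pandas 2.3.3, numpy 2.4.6, scipy 1.17.1 and pysam 0.24.0 were used, and the counting steps were tested on simulated data. Alternatives changed the footprint minimum, the peak list, merging, the distance to starts, the overlap and the widening, left out a replicate, or ranked regions by density.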

Additional observations from a re-analysis of the deposited data

How the results depend on the processing

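Of 93 recalculated values 41 were labelled as close to the reported value and 52 as moved. Shares were judged by their exact intervals. The overlap was judged by the SD of its 2 directions and the GC box ratio by the SD of its 2 values. Neither SD measures spread between animals. The number of regions has no error, yet 6 of its 11 recalculated values, the lowest 859, were labelled as close. The tally is therefore not a count of values within an error. The results were 1074 regions, 57.8% of 400 bp or more, 64.5% of footprints overlapping between replicates and 33.5% in introns. Further, 20.0% were near another start, 24.9% were CpG-rich, the GC box ratio was 4.15 and 4.10% were near listed genes. That 4.10% is 44 of the 1074 members, beside 1652 of all 53679 shared distal regions. With a minimum of 5 footprints the results became 2778 regions, 38.9%, 37.8% in introns, 16.5% near a start, 18.3% CpG-rich and a ratio of 3.85. A minimum of 8 gave 236 regions, 89.0%, 30.5% in introns, 31.4% CpG-rich, a ratio of 4.6 and 2.54% listed. A minimum of 10 gave 56 regions, 96.4%, 26.8% in introns, 32.1% near a start, 42.9% CpG-rich, a ratio of 5.58 and 1.79% listed. Counting only whole footprints gave 62.7% of 400 bp or more and a ratio of 4.09, and the strict peak lists gave 51.5%. A distance of 2.5 kb gave 30.4% in introns, 20.8% CpG-rich and a ratio of 4.31. Removing starts of all genes gave 0% near a start by construction and 18.9% CpG-rich. Ranking by footprints per 100 bp gave 0.559% of 400 bp or more, 83.5% overlapping, 38.1% in introns, 13.0% near a start, 18.4% CpG-rich, a ratio of 3.93 and 2.89% listed.

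Leaving out the count of either replicate gave 2200 to 3933 regions, 38.6% to 44.8% of 400 bp or more, 58.4% to 62.2% overlapping, 37.6% to 40.8% in introns, 13.8% to 17.2% near a start, 13.2% to 19.0% CpG-rich, ratios of 3.68 to 3.86 and 4.02% to 4.41% listed. Overlap by 50% of the shorter footprint gave 58.6%, and identical ends 3.31%. The GC box ratio was 4.85 without widening and 3.36 with 10 bp. Gene bodies in place of nearest starts gave 1.96% listed, beside 886 of all 53679 shared distal regions. Where the construction does not show it, the cause was not tested. No paired analysis was possible because only 1 group exists here. The depth is unknown, so what it limits cannot be stated.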
